A study of Mus musculus with 32 samples.

Results

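Of the genes counted in a set of 32 mouse RNA-seq libraries, 10 are described here: the NF-kB subunit genes Nfkb1, Nfkb2 and Relb, the feedback genes Nfkbia, Nfkbiz, Tnfaip3 and Birc3, the adhesion genes Icam1 and Vcam1, and the cytokine gene Csf1. They were chosen by symbol, as genes that NF-kB is known to induce, and with earlier results of these data known. Counts of these genes called are therefore descriptions of the set. All 10 were found among 27843 genes listed for AML12 cells and among 55414 listed for HL-1 cells, with levels high enough to test for all 10 in AML12 and for 8 in HL-1. AML12, a mouse hepatocyte line, was sampled after the treatment that the labels abbreviate as DEX and after control treatment, at 17 h and at 25 h. HL-1, a mouse cardiomyocyte line, was sampled at 16 h and at 28 h in AML12-derived medium: CM, the conditioned medium with DEX synchronization, or control medium, which had none. Each of the 8 groups has 4 libraries, and the study asked about rhythmic communication between the lines. The labels do not tell if a group's 4 libraries are separate cultures, so the p-values here reflect the variation among these libraries, whose source may be technical.

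NF-kB is a family of dimeric transcription factors that inhibitor proteins hold in the cytoplasm until a signal, such as a cytokine or a microbial product, leads to the destruction of the inhibitor. The dimers then enter the nucleus and induce genes for cytokines, adhesion molecules and survival factors. They also induce their own inhibitors and subunits, which makes a feedback loop. In liver the pathway is known for inflammatory and survival responses of hepatocytes. Glucocorticoids are known to restrain many NF-kB targets through their receptor.

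RefSeq promoter windows, which run from 250 bases before to 50 bases after an annotated start on GRCm38.p6, matched 6 of the 10 genes by symbol: Nfkbia, Nfkb2, Tnfaip3, Csf1, Birc3 and Icam1. The kB consensus, searched on both strands, was found in windows of 4 of these, namely Nfkbia, Nfkb2, Tnfaip3 and Csf1, and its letters were not in the windows of Birc3 or Icam1. Of all 32851 windows 4.51% hold it, and of all 27025 genes with a window 5.14%. The palindromic glucocorticoid receptor element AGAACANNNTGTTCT, whose letters read the same on both strands in their fixed positions, was in none of the 9 windows of these genes and in 3 of all 32851, so it overlapped no kB match. The 250 bases before the start are shown for 4 genes because they hold the best-known DNA element of this pathway. The sequences are RefSeq's, 5′ to 3′ on the gene's strand, with the kB matches of either strand in capitals.
Nfkbia, chr12:55492648-55492897, minus strand: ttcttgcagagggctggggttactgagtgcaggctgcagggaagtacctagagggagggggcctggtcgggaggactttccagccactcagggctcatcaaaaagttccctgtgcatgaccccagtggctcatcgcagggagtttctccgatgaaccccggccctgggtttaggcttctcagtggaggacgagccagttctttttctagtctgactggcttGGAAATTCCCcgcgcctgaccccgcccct
Nfkb2, chr19:46304487-46304736, plus strand: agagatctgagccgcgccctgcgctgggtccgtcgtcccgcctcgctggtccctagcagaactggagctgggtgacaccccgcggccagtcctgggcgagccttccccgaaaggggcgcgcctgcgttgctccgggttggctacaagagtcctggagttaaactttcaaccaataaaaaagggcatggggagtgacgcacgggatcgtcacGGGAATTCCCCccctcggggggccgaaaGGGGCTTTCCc
Tnfaip3, chr10:19015411-19015660, minus strand: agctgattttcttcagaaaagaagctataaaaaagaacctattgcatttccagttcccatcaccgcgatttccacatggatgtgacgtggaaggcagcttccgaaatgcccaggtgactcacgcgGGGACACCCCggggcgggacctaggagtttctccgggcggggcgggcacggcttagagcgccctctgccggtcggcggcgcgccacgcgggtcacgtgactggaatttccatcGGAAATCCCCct
Csf1, chr3:107760470-107760719, minus strand: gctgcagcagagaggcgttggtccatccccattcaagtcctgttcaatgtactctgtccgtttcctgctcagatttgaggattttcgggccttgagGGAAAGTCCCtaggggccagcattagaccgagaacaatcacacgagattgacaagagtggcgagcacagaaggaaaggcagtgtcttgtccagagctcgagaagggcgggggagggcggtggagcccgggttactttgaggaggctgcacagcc
The stretch in Nfkbia lies 29 to 20 bases before the start. Nfkb2 has other starts as well, and the window shown has stretches 39 to 29 and 11 to 2 bases before its start, the first made of overlapping matches. In Tnfaip3 the stretches lie 125 to 116 and 12 to 3 bases before the start, and in Csf1 the match lies 154 to 145 bases before it. A match describes these letters and shows no binding.

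The libraries held 15.0 to 17.5 M (mega) counts in AML12 and 15.7 to 19.3 M in HL-1. In HL-1, CM libraries were deeper than controls at 16 h (17.9 to 19.3 against 15.7 to 17.4 M). At 28 h CM libraries were deeper on average (means of 18.2 against 16.6 M), with overlapping ranges (17.5 to 19.2 against 16.0 to 18.1 M). Levels are given in CPM, in which each library's counts are divided by its TMM-scaled total. In AML12 the hepatocyte factor gene Hnf4a averaged 205 CPM while albumin (Alb) averaged 1.43 CPM. In HL-1 the gap junction gene Gja1 averaged 466 CPM and Des 524 CPM, and the atrial and cardiac muscle genes Nppa and Myh6 were at or near 0. The cardiac genes Actc1 (0.0171 CPM) and Ryr2 (0.422 CPM) were low there too. The troponin gene Tnnt2 averaged 34.5 CPM in HL-1 and 55.1 CPM in AML12. Nkx2-5 averaged 2.92 CPM in HL-1 and 4.01 CPM in AML12. Of the fibroblast markers, Col1a2 averaged 844 CPM in HL-1, Col1a1 175 CPM, Pdgfra 52.0 CPM and Dcn 22.9 CPM, while Lum averaged 0.0145 CPM. Among known glucocorticoid receptor targets, Sgk1 (a log2 fold change of 2.32 ± 0.07, SE), Fkbp5 (1.77 ± 0.06), Tsc22d3 (1.73 ± 0.05), Per1 (1.65 ± 0.07) and Dusp1 (1.18 ± 0.06) were all higher in DEX than in control AML12 cells at 17 h. At 25 h Fkbp5 (0.56 ± 0.06), Per1 (0.26 ± 0.07) and Tsc22d3 (0.20 ± 0.05) were higher by less, while Sgk1 (0.00 ± 0.08, adjusted p = 0.991) and Dusp1 (0.01 ± 0.07, adjusted p = 0.965) did not pass. Several libraries stood apart from the rest of their group by a chi-square comparison of counts: DEX replicate 2 at 17 h, DEX replicate 4 at 25 h and HL-1 control replicate 3 at 16 h, and by a small margin AML12 control replicate 4 at 17 h and at 25 h. The number of the genes called without each of them is given with the results.

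Per kilobase of exon, Csf1 (macrophage colony-stimulating factor) and Nfkbia (the inhibitor IkB alpha) were the most abundant of the 10 in AML12 control cells at 17 h, and Icam1 the least. Csf1 averaged 101 ± 7.18 CPM per kilobase there (SD, n = 4) and Nfkbia 89.3 ± 7.74, and their libraries overlapped. Nfkb2 followed at 76.2 ± 2.33, Tnfaip3 at 44.6 ± 1.40 and Nfkbiz at 29.0 ± 0.588, each without overlap with the gene above it. Nfkb1 (27.9 ± 0.693) overlapped Nfkbiz. Birc3 (21.7 ± 0.868), Relb (18.9 ± 0.672) and Vcam1 (16.9 ± 1.31) came below, and Relb and Vcam1 overlapped. Icam1 stood far below the others, at 1.55 ± 0.380 CPM per kilobase.

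In DEX cells at 17 h that order changed at the top. Nfkbia came first, at 81.4 ± 5.97 CPM per kilobase, then Nfkb2 at 64.9 ± 2.33 and Csf1 at 62.0 ± 3.63, the last pair overlapping. At 25 h Csf1 was first again in both arms, at 206 ± 11.0 CPM per kilobase in DEX cells and 198 ± 3.58 in control cells, without overlap with Nfkbia (169 ± 12.5 in DEX cells and 185 ± 4.27 in control cells). Vcam1 was the ninth of the 10 in both arms at 17 h. At 25 h it was the fifth in DEX cells, overlapping Nfkbiz below it, and the seventh in control cells, overlapping Birc3 below it.

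In AML12 cells at 17 h, 9 of the 10 genes fell with DEX and none rose, by edgeR's quasi-likelihood test at an adjusted p under 0.05 over all 14114 genes tested. Over all these genes 17.9% were called lower, 20.5% higher and 38.4% in either direction. The 4 DEX libraries lay below all 4 control libraries for the same 9 genes, as they did for 15.8% of all genes tested. Without control replicate 4, which stood apart, 9 were again called lower. The median change of the 10 was -0.69 on the log2 scale, and that of all genes tested was 0.00. The summed level of the 10 was 1519 ± 43.8 CPM in DEX cells and 2168 ± 93.8 CPM in control cells (SD, n = 4 each).

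The adhesion genes, which encode surface proteins that leukocyte integrins bind, changed most. Vcam1 (ENSMUSG00000027962, GRCm38 chromosome 3, 116109949 to 116129688, minus strand) had 54.7, 66.0, 58.5 and 66.4 CPM in the 4 DEX libraries, against 139, 145, 150.1 and 166 CPM in the 4 control libraries. The 2 groups were far apart, and the DEX mean was 41.0% of the control mean in the fit. The log2 fold change was -1.29 ± 0.06 (SE, adjusted p = 7.97e-14). Icam1 (ENSMUSG00000037405, chromosome 9, 21015985 to 21028817, plus strand) was a low gene, with 3.33, 3.29, 2.56 and 4.32 CPM in DEX libraries, against 5.65, 6.43, 5.77 and 9.19 CPM in control libraries. Its groups did not overlap, although they rest on only 42 to 70 counts per DEX library and 88 to 158 per control library. It fell by 1.00 ± 0.16 on the log2 scale (adjusted p = 1.42e-05).

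Csf1 (ENSMUSG00000014599, chromosome 3, 107741048 to 107760469, minus strand), the growth factor of macrophages, was the highest of the 10 in CPM. It had 302, 345, 324 and 339.6 CPM in DEX libraries, against 497, 525, 520.4 and 586 CPM in control libraries. All DEX libraries were lower, and the log2 fold change was -0.70 ± 0.05 (adjusted p = 6.63e-11). The fall left Csf1 at 61.6% of control.

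Among the subunit genes, Nfkb1 fell more than Nfkb2 or Relb. Nfkb1 (ENSMUSG00000028163, chromosome 3, 135584655 to 135691547, minus strand), whose product is the precursor of a DNA-binding subunit of the canonical pathway, had 191, 200.5, 213 and 206 CPM in DEX libraries, against 327, 342, 332 and 345 CPM in control libraries. The highest DEX library was well below the lowest control library, and the log2 fold change was -0.73 ± 0.05 (adjusted p = 2.85e-11). Relb (ENSMUSG00000002983, chromosome 7, 19606217 to 19629438, minus strand) and Nfkb2 (ENSMUSG00000025225, chromosome 19, 46304320 to 46312385, plus strand) encode the partners of the non-canonical dimer. Relb ranged from 53.2 to 62.5 CPM in DEX libraries and from 71.5 to 77.2 CPM in control libraries, a log2 fold change of -0.36 ± 0.05 (adjusted p = 2.85e-06). Nfkb2 ranged from 288 to 312 CPM in DEX libraries and from 338 to 363 CPM in control libraries, a log2 fold change of -0.23 ± 0.04 (adjusted p = 9.27e-05). Neither pair of groups overlapped. The exons of Nfkb2 overlap those of Psd on the opposite strand, which had 40.3 to 97.1 CPM, and the strand setting of the counting is not given in the sources used here.

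The feedback genes split. Nfkbiz (ENSMUSG00000035356, chromosome 16, 55811375 to 55838899, minus strand), which encodes a nuclear co-regulator of NF-kB, had 87.5, 95.4, 92.5 and 86.7 CPM in DEX libraries, against 142, 149, 144 and 147 CPM in control libraries. It fell by 0.69 ± 0.04 on the log2 scale (adjusted p = 1.44e-12), with groups far apart. Birc3 (ENSMUSG00000032000, chromosome 9, 7848699 to 7873186, minus strand), a ubiquitin ligase of TNF receptor signalling, had 62.7, 62.2, 63.2 and 69.5 CPM in DEX libraries, against 103, 109.6, 110.4 and 113 CPM in control libraries. It likewise fell without overlap, by 0.76 ± 0.05 (adjusted p = 3.66e-12).

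Tnfaip3 and Nfkbia, the brakes best known for ending NF-kB signalling, differed less. Tnfaip3 (ENSMUSG00000019850, chromosome 10, 19000910 to 19015657, minus strand), a ubiquitin-editing enzyme, had 274, 293, 277 and 287 CPM in DEX libraries, against 327, 314, 314 and 334 CPM in control libraries. Its groups did not overlap, and it fell by 0.19 ± 0.05 (adjusted p = 0.00276), to 87.7% of control. Nfkbia (ENSMUSG00000021025, chromosome 12, 55489410 to 55492647, minus strand) had 119.9, 142, 128 and 134 CPM in DEX libraries, against 132, 141, 139.9 and 162 CPM in control libraries. The groups overlapped, and the log2 fold change of -0.13 ± 0.06 did not pass the test (adjusted p = 0.0848). Without DEX replicate 2, a library that stood apart, it was -0.18 and passed (adjusted p = 0.0141), so that all 10 genes were then called lower. It also passed without control replicate 1 (-0.18, adjusted p = 0.0306), without a low-count filter (-0.14, adjusted p = 0.0192) and with scaling by total counts only (-0.17, adjusted p = 0.0262).

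**Figure D1:**
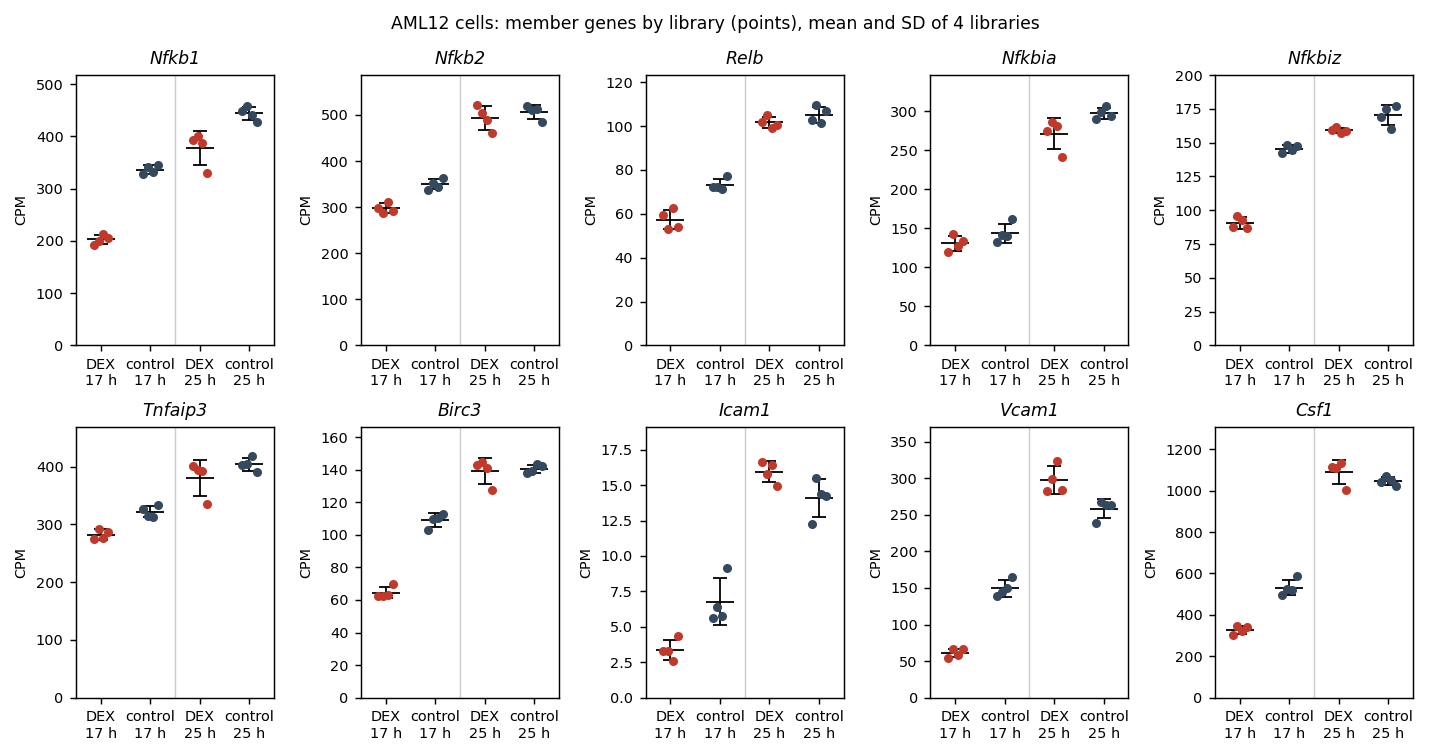
Levels of the 10 genes in AML12 cells, in CPM (y axis, from 0), in 4 libraries per group (points) with the mean and SD (bars), for DEX (red) and control (dark) at 17 h and at 25 h. At 17 h the red points lie below the dark ones for every gene except Nfkbia, where they overlap, and Vcam1 is at 54.7 to 66.4 CPM in DEX libraries and 139 to 166 CPM in control libraries.

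The level of a gene relative to Nfkbia in the same library, each per kilobase of exon, shows how the proportions within the set differed. Vcam1 stood at 0.0849 ± 0.00318 of Nfkbia in DEX cells and 0.189 ± 0.00415 in control cells at 17 h (SD, n = 4 each). The ratio of Csf1 was 0.763 ± 0.0168 in DEX cells and 1.13 ± 0.0164 in control cells, so Csf1 lay below Nfkbia in DEX cells and above it in control cells. Nfkb1 had ratios of 0.207 ± 0.0150 in DEX cells and 0.314 ± 0.0199 in control cells. Tnfaip3 kept closer proportions, at 0.481 ± 0.0214 in DEX cells and 0.502 ± 0.0372 in control cells, with overlapping libraries. These ratios are descriptions and were not tested.

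Pathway genes outside the 10 moved both ways at 17 h. Of a list of 74 such genes 60 could be tested, of which 10 rose and 23 fell. Of all genes tested, 20.5% were called higher and 17.9% lower. The median of the list was -0.07 on the log2 scale, beside 0.00 for all genes. Among 17 survival and adhesion targets, 2 rose and 10 fell. The survival gene Bcl2l1 rose by 0.80 ± 0.04 (adjusted p = 1.62e-14), at 347 CPM in DEX cells against 199 CPM in control cells. The early response gene Ier3 fell by 1.12 ± 0.06 (adjusted p = 3.95e-13), at 144 CPM in DEX cells against 312 CPM in control cells. Among 12 inhibitors and brakes, 4 rose and 5 fell. The RNA-destabilising protein gene Zfp36 rose by 1.55 ± 0.12 (adjusted p = 1.71e-10), at 21.9 CPM in DEX cells against 7.49 CPM in control cells, and N4bp1 rose by 0.71 ± 0.04 (adjusted p = 4.10e-13). The other 2 subunit genes did not pass the test: Rela had a log2 fold change of -0.07 ± 0.06 (adjusted p = 0.334) and Rel one of 0.15 ± 0.08 (adjusted p = 0.131).

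Marker levels of cell types in which adhesion genes are prominent were low in AML12 cells. The summed level of the 5 endothelial markers listed for AML12 cells was 2.65 to 3.74 CPM in DEX libraries at 17 h, against 3.90 to 5.58 CPM in control libraries, with Tek at 0 in both. That of the 5 leukocyte markers listed was 7.74 to 10.9 CPM in DEX libraries, against 9.94 to 11.4 CPM in control libraries, with Cd3e at 0 in both. The hepatocyte markers summed to 281 to 295 CPM in DEX libraries, against 383 to 420 CPM in control libraries. Hnf4a and Apob held most of these sums, averaging 205 and 154 CPM over the 16 AML12 libraries. Alb, Ttr, Trf, Apoa1 and Serpina1a averaged 1.05 to 1.43 CPM each, and Cps1 0.0454 CPM. The part of all these markers in the changes of the 10 genes was not tested, and fewer cells of a type and less RNA per cell cannot be told apart in such bulk samples.

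At 25 h, 1 of the 10 genes was higher with DEX and 1 was lower. Over all genes tested 6.79% were called higher, 4.96% lower and 11.7% in either direction. The 4 DEX libraries lay above all 4 control libraries for 1 of the 10 and below them for 2, as they did for 9.57% and 8.46% of all genes tested. Without DEX replicate 4 the counts were again 1 and 1, and without control replicate 4 none was called higher and 1 lower. The median of the 10 was -0.04, beside 0.00 for all genes. Their summed level was 3325 ± 181 CPM in DEX cells and 3388 ± 54.5 CPM in control cells. In the pathway list, 3 of the 60 genes tested rose and 4 fell. Csf1r, the receptor of Csf1, was the most significant of them, at 11.0 CPM in DEX cells against 7.16 CPM in control cells (0.62 ± 0.10, adjusted p = 0.000124). Cflar, an inhibitor of cell death, rose by 0.21 ± 0.04 (adjusted p = 0.00111), while the syndecan Sdc4 fell by 0.23 ± 0.05 (adjusted p = 0.00138) and the adhesion gene Mcam by 0.93 ± 0.23 (adjusted p = 0.00721). The leukocyte markers, which include Csf1r, summed to 13.0 to 14.4 CPM in DEX libraries and 8.61 to 10.8 CPM in control libraries, with Itgam and Cd3e at 0 in DEX libraries. Their part in the changes of the 10 genes was not tested.

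Vcam1 was the gene that rose. It had 283, 299.6, 323 and 283 CPM in DEX libraries at 25 h, against 239, 268, 264 and 264 CPM in control libraries. Every DEX library was higher, so its order was the opposite of that at 17 h. The log2 fold change was small, at 0.20 ± 0.06 (adjusted p = 0.0247). It no longer passed when any of 5 libraries was left out, namely control replicates 1, 3 and 4 and DEX replicates 2 and 3, with values down to 0.15 and an adjusted p of up to 0.141.

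Nfkb1 was the gene that fell. It had 393, 400.4, 387 and 329.5 CPM in DEX libraries, against 449, 458, 441 and 428 CPM in control libraries. All DEX libraries were lower, and replicate 4 was the lowest. The log2 fold change was -0.23 ± 0.05 (adjusted p = 0.00198).

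The other 8 genes did not pass at 25 h. Nfkbia had 275, 287, 281 and 242 CPM in DEX libraries, against 291, 299, 306 and 294 CPM in control libraries. Its DEX libraries all lay lower, but the log2 fold change of -0.13 ± 0.06 had an adjusted p of 0.160, and it passed only in a fit of these 8 libraries alone (adjusted p = 0.0491). Csf1 had 1112, 1108, 1131 and 1003 CPM in DEX libraries, against 1042, 1069, 1050.3 and 1024 CPM in control libraries. These groups overlapped, with a log2 fold change of 0.06 ± 0.05 (adjusted p = 0.548). Icam1 had 16.6, 15.8, 16.4 and 15.0 CPM in DEX libraries, against 12.3, 15.5, 14.4 and 14.2 CPM in control libraries, a log2 fold change of 0.17 ± 0.11 (adjusted p = 0.386). Birc3 ranged from 128 to 145 CPM in DEX libraries and from 138 to 143 CPM in control libraries, a log2 fold change of -0.02 ± 0.04 (adjusted p = 0.894). Nfkb2, Relb, Nfkbiz and Tnfaip3 likewise had overlapping groups, with log2 fold changes of -0.10 to -0.04. Of these, Nfkbiz passed without control replicate 3 (-0.14, adjusted p = 0.0279).

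The effect of DEX differed between the times for 8 of the 10 genes, by the test of the difference itself, all in the positive direction. Over all genes tested 7.91% were called in that direction and 8.27% in the other. The difference, the effect at 25 h minus that at 17 h, was 1.49 ± 0.09 on the log2 scale for Vcam1 (adjusted p = 7.73e-12) and 1.18 ± 0.19 for Icam1 (adjusted p = 9.50e-05). It was 0.76 ± 0.07 for Csf1 (adjusted p = 2.63e-08), 0.74 ± 0.06 for Birc3 (adjusted p = 7.81e-09) and 0.59 ± 0.06 for Nfkbiz (adjusted p = 3.32e-08). The subunit genes had smaller differences, with 0.50 ± 0.07 for Nfkb1 (adjusted p = 1.41e-05), 0.31 ± 0.07 for Relb (adjusted p = 0.00231) and 0.19 ± 0.06 for Nfkb2 (adjusted p = 0.0261). That of Nfkb2 no longer passed when any of 7 of the 16 libraries was left out, with an adjusted p of up to 0.0826; these were controls 4 at 17 h and 2 and 4 at 25 h, and DEX replicates 1 and 4 at 17 h and 1 and 2 at 25 h.

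Nfkbia and Tnfaip3 were the exceptions. The difference was 0.00 ± 0.08 for Nfkbia (adjusted p = 0.993) and 0.10 ± 0.07 for Tnfaip3 (adjusted p = 0.343). That of Tnfaip3 passed without DEX replicate 4 at 25 h, a library that stood apart (0.16, adjusted p = 0.0473), which made 9 of 10 genes called. Without DEX replicate 2 at 17 h 8 were called. Without control replicate 4 at 17 h or at 25 h, 7 were called. In the pathway list 13 of 60 genes had a more positive effect at 25 h and 6 a more negative one, beside 7.91% and 8.27% of all genes. Among those of the list were Ier3 (0.93 ± 0.08, adjusted p = 1.52e-08), Bcl2l1 (-0.79 ± 0.05, adjusted p = 5.56e-11), N4bp1 (-0.71 ± 0.06, adjusted p = 1.30e-09) and Zfp36 (-1.67 ± 0.17, adjusted p = 6.48e-08).

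**Figure D2:**
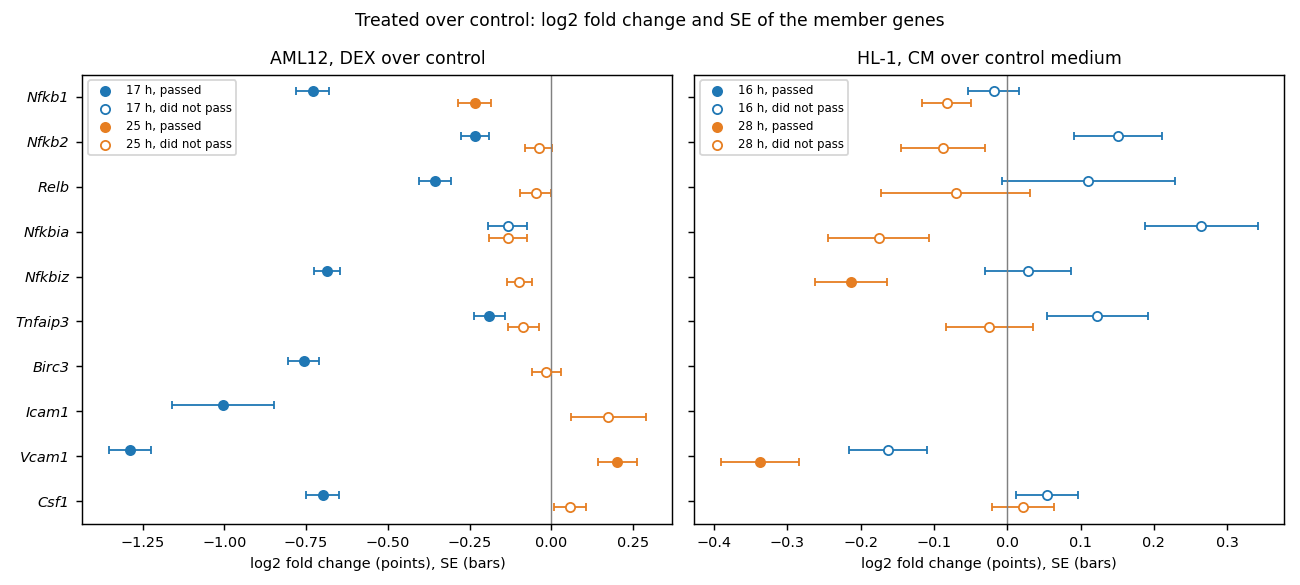
Log2 fold change of treated over control cells (x axis) for each gene (y axis), with SE bars, in AML12 (left, DEX over control at 17 h and 25 h) and HL-1 (right, CM over control medium at 16 h and 28 h). Filled points passed the test and open points did not, and the panels have different x scales. In AML12 the 17 h points run from -1.29 (Vcam1) to -0.13 (Nfkbia) and the 25 h points from -0.23 to 0.20.

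All 10 genes were higher at 25 h than at 17 h in both arms of AML12. In DEX cells every gene rose, where 27.8% of all genes did, and in control cells too, where 22.1% did, and in each arm all 4 later libraries lay above all 4 earlier ones for all 10, as they did for 23.1% of all genes in DEX cells and 22.2% in control cells. The median rise was 0.97 on the log2 scale in DEX cells and 0.53 in control cells, beside medians of 0.00 over all genes tested in both arms. All 10 were called higher in each arm also without any of its libraries that stood apart. The comparisons of the arms with time use the same libraries as those of DEX with control.

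The largest rises in DEX cells were those of Vcam1 (2.28 ± 0.06, adjusted p = 1.76e-18), Icam1 (2.24 ± 0.14, adjusted p = 2.71e-12) and Csf1 (1.73 ± 0.05, adjusted p = 4.83e-18). The means of Vcam1 were 297 CPM at 25 h and 61.4 CPM at 17 h in these cells, a 4.85-fold rise. Birc3 rose by 1.11 ± 0.05 (adjusted p = 2.30e-15) in DEX cells and by 0.37 ± 0.04 (adjusted p = 5.18e-07) in control cells. Nfkb1 rose by 0.90 ± 0.05 in DEX cells and by 0.40 ± 0.05 in control cells, and Nfkbiz by 0.81 ± 0.04 in DEX cells and by 0.23 ± 0.04 in control cells. The rise of Nfkbiz in control cells was the smallest of all these rises.

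In control cells Icam1 (1.06 ± 0.13, adjusted p = 4.16e-07), Nfkbia (1.05 ± 0.06, adjusted p = 3.41e-12) and Csf1 (0.98 ± 0.05, adjusted p = 1.17e-12) rose most. Nfkbia rose by 1.05 ± 0.06 in DEX cells as well (adjusted p = 4.47e-13), which is the difference of 0.00 given above. Tnfaip3 rose by 0.43 ± 0.05 in DEX cells and 0.33 ± 0.05 in control cells. Relb rose by 0.83 ± 0.05 in DEX cells and 0.52 ± 0.05 in control cells, and Nfkb2 by 0.73 ± 0.04 in DEX cells and 0.54 ± 0.04 in control cells.

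Many genes of the pathway list rose with time as well. In DEX cells 32 of 60 rose and 14 fell, where 27.8% of all genes rose and 28.2% fell. The list was led in significance by Ier3 (1.36 ± 0.06, adjusted p = 6.79e-15), the inhibitor gene Nfkbie (0.99 ± 0.05, adjusted p = 9.40e-14), the Birc3 paralog Birc2 (1.00 ± 0.05, adjusted p = 1.16e-13) and, downward, Bcl2l1 (-0.69 ± 0.04, adjusted p = 1.33e-13). In control cells 30 of 60 rose and 4 fell, where 22.1% of all genes rose and 21.4% fell, led by the stress gene Gadd45b (1.22 ± 0.07, adjusted p = 4.07e-12), Sdc4 (0.59 ± 0.05, adjusted p = 9.53e-10), Nfkbie (0.54 ± 0.05, adjusted p = 1.05e-08) and Birc2 (0.54 ± 0.05, adjusted p = 1.20e-08). Rela, the main transactivating subunit, rose by 0.24 ± 0.06 in DEX cells (adjusted p = 0.000796) and by 0.19 ± 0.06 in control cells (adjusted p = 0.00790).

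Marker levels differed with time in DEX cells too. The hepatocyte markers summed to 387 to 411 CPM at 25 h and 281 to 295 CPM at 17 h in DEX libraries, and to 368 to 405 CPM at 25 h and 383 to 420 CPM at 17 h in control libraries. As above, most of these sums was Hnf4a and Apob. The leukocyte markers summed to 13.0 to 14.4 CPM at 25 h and 7.74 to 10.9 CPM at 17 h in DEX libraries, and to 8.61 to 10.8 CPM at 25 h and 9.94 to 11.4 CPM at 17 h in control libraries. Of these markers, Csf1r alone averaged 11.0 CPM at 25 h and 4.60 CPM at 17 h in DEX cells. In control cells it averaged 7.16 CPM at 25 h and 6.30 CPM at 17 h. Ptprc, Itgam and Cd3e were at or near 0. The times did not overlap in DEX cells for either list and did in control cells for both, and the part of these markers in the rises of the 10 genes was not tested.

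Over the 4 AML12 groups, the order of levels fell into a few shapes. For Vcam1 the order from high to low was DEX 25 h, control 25 h, control 17 h and DEX 17 h, and no neighbours overlapped. Csf1 and Icam1 had the same order, with the pair of 25 h groups overlapping. For Nfkb2, Relb, Nfkbiz, Tnfaip3 and Birc3 control 25 h came first, overlapping DEX 25 h, and the 17 h groups followed without overlap. Nfkb1 differed in that DEX at 25 h overlapped control at 17 h. Nfkbia differed in that the 17 h groups overlapped and the 25 h groups did not.

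By root mean square difference of centred log2(CPM + 1) over the 16 AML12 libraries, the genes most like Vcam1 among 12723 compared were the chemokine gene Cxcl11 (0.130), the transporter Slco1a6 (0.171) and the chemokine gene Ccl9 (0.204). Smaller values mean closer patterns, and the root mean square spread of Vcam1 around its own mean was 0.892. Those most like Csf1 were the transcription factor gene Irf1 (0.0947), Pak6 (0.123) and Tcim (0.145), and those most like Icam1 were Csf1 (0.162), Irf1 (0.196) and Vcam1 (0.209). Csf1 and Vcam1 were thus the only members among the 3 nearest genes of any of the 9 that fell at 17 h.

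The nearest genes of the others were of many kinds. Birc3 was closest to the adaptor kinase gene Irak2 (0.0613), Il5ra (0.0660) and Wisp1 (0.0684), and Nfkb1 to Clu (0.0658), Fzd7 (0.0693) and Tpm1 (0.0782). Nfkb2 was closest to Smad3 (0.0567), Adcy6 (0.0625) and Myrf (0.0650), and Relb to Kctd5 (0.0607), Adcy6 (0.0681) and Klhdc7a (0.0698). Nfkbiz was closest to Sox4 (0.0496), Tpm1 (0.0634) and Sertad4 (0.0640), and Tnfaip3 to Ric1 (0.0544), Il6st (0.0576) and Sh3pxd2a (0.0587). Values are smaller for genes that vary little, so they are not comparable between genes: the spread of Tnfaip3 was 0.212.

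In HL-1 cells the set was expressed without Birc3 and nearly without Icam1. Birc3 had 1 count in all 16 libraries together, in control replicate 1 at 28 h. Icam1 had 0 to 7 counts per library, at 0.151 ± 0.167 CPM in CM cells and 0.108 ± 0.0626 CPM in control cells at 28 h, and neither was tested. Per kilobase of exon Csf1 came first in every group, at 94.7 ± 4.99 CPM per kilobase in CM cells and 91.3 ± 4.87 in control cells at 16 h, and Nfkbia the second, at 28.2 ± 2.69 in CM cells and 23.5 ± 2.96 in control cells. Nfkb2 (17.0 ± 1.36 in CM cells and 15.3 ± 1.39 in control cells) and Nfkb1 (11.6 ± 0.282 in CM cells and 11.7 ± 0.410 in control cells) were next, and Relb (3.31 ± 0.420 in CM cells and 3.08 ± 0.533 in control cells) was the lowest of the 8, overlapping Tnfaip3. The tables of the lines were counted and scaled separately, so levels were not tested between them.

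Between CM and control medium at 16 h none of the 8 genes passed edgeR's test, where 2.03% of all 14450 genes tested did. At an unadjusted p under 0.05, 3 of the 8 passed, as did 11.0% of all genes. At an adjusted p under 0.05, 1 of the 8 did with DESeq2 and 0 with limma-voom, where 2.85% of the genes given an adjusted p by DESeq2 and 1.83% of those tested by limma-voom did. Vcam1 had 61.9, 60.2, 63.8 and 62.9 CPM in CM libraries, against 76.0, 69.4, 67.8 and 65.0 CPM in control libraries. All CM libraries were lower, as for 3.52% of all genes, but the log2 fold change of -0.16 ± 0.05 had an adjusted p of 0.146. Nfkbia had 40.0, 48.8, 43.9 and 49.0 CPM in CM libraries, against 32.0, 36.3, 42.9 and 40.2 CPM in control libraries.

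These Nfkbia groups overlapped, with a log2 fold change of 0.26 ± 0.08 (adjusted p = 0.0826). It passed with DESeq2 (0.26, adjusted p = 0.0460), without a low-count filter (0.27, adjusted p = 0.000639), without CM replicate 1 (0.31, adjusted p = 0.0359) and without control replicate 3, the library that stood apart (0.32, adjusted p = 0.0257). The third gene under an unadjusted p of 0.05 was Nfkb2, at 0.15 ± 0.06 (adjusted p = 0.288). The other 5 had overlapping groups and log2 fold changes of -0.02 to 0.12.

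At 28 h, 2 of the 8 genes fell with CM and none rose, where 1.22% of all genes tested were called lower and 0.706% higher. Vcam1 had 59.0, 60.2, 59.1 and 53.9 CPM in CM libraries, against 67.3, 76.0, 72.6 and 77.5 CPM in control libraries. The groups did not overlap, and Vcam1 fell by 0.34 ± 0.05 on the log2 scale (adjusted p = 0.000363), to 79.2% of control. Nfkbiz had 103, 94.0, 96.0 and 96.6 CPM in CM libraries, against 113, 114, 118 and 107 CPM in control libraries. It fell by 0.21 ± 0.05 (adjusted p = 0.0170), again without overlap. That call was lost without CM replicate 3 or control replicate 1, 2 or 3, with an adjusted p of up to 0.0826, while Vcam1 passed without each of the 8 libraries (adjusted p up to 0.00287).

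For 2 more genes all CM libraries lay lower at 28 h without passing the test, which makes 4 of 8, where 4.64% of all genes had such groups. Nfkbia had 80.4, 78.0, 85.3 and 91.6 CPM in CM libraries, against 92.0, 91.7, 94.1 and 101 CPM in control libraries. The highest CM library came close to the lowest control library, and the log2 fold change was -0.18 ± 0.07 (adjusted p = 0.257). Nfkb1 ranged from 210.1 to 219 CPM in CM libraries and from 223 to 229 CPM in control libraries, a log2 fold change of -0.08 ± 0.03 (adjusted p = 0.282). Csf1, Tnfaip3, Relb and Nfkb2 had overlapping groups, with log2 fold changes of -0.09 to 0.02. The summed level of the set was 1055 ± 15.3 CPM in CM cells and 1111 ± 15.6 CPM in control cells.

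**Figure D3:**
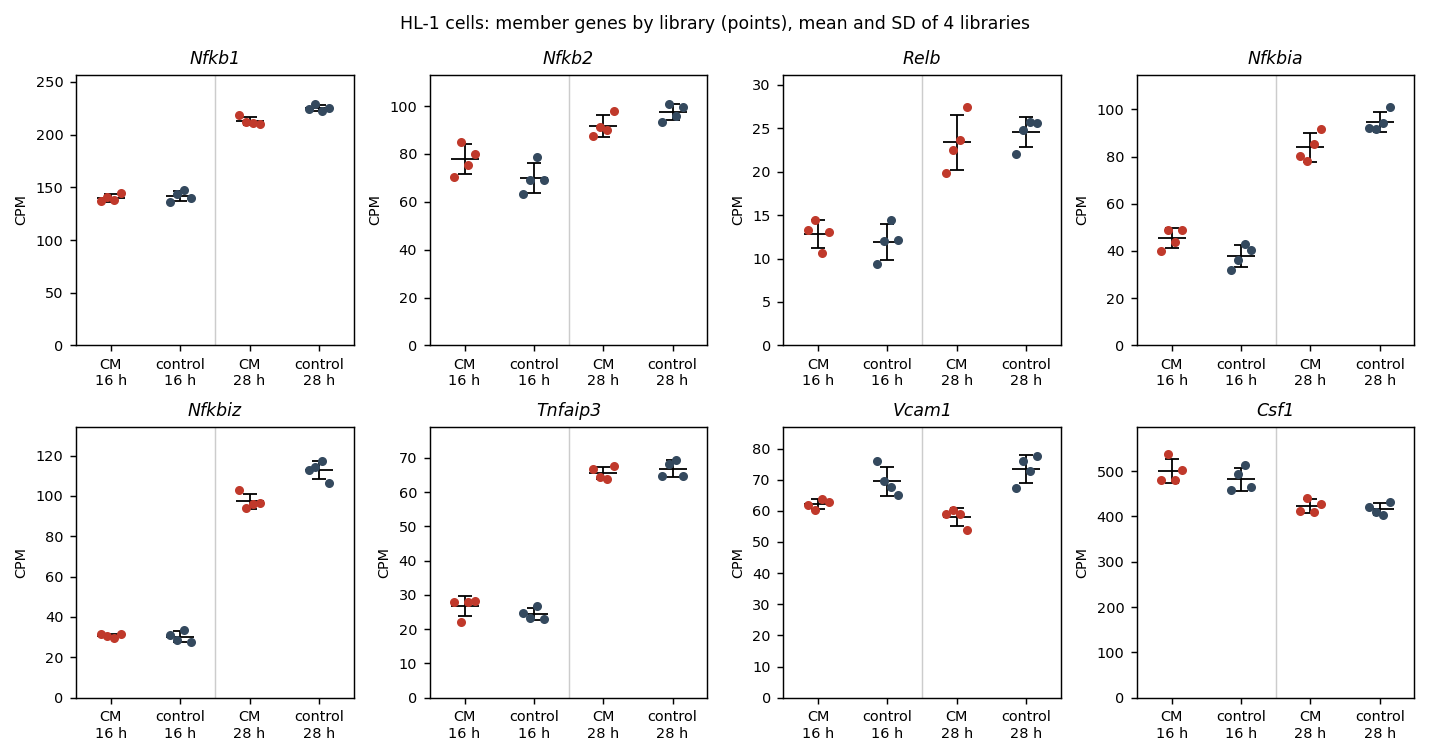
Levels of the 8 genes tested in HL-1 cells, in CPM (y axis, from 0), in 4 libraries per group (points) with the mean and SD (bars), for CM (red) and control medium (dark) at 16 h and at 28 h. At 28 h Vcam1 is at 53.9 to 60.2 CPM in CM libraries and 67.3 to 77.5 CPM in control libraries, and Nfkbiz is at 94.0 to 103 CPM in CM libraries and 107 to 118 CPM in control libraries.

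The effect of CM did not differ between the times for any of the 8 genes by edgeR's test, where 0.277% of all genes did. At an unadjusted p under 0.05, 4 of the 8 passed, as did 6.73% of all genes. At an adjusted p under 0.05, 1 of the 8 did with DESeq2 and 0 with limma-voom, beside 0.553% and 0.284% of all genes by those tools. For Nfkbia the difference, the effect at 28 h minus that at 16 h, was -0.44 ± 0.10 (adjusted p = 0.0756), with an effect of -0.18 at 28 h and 0.26 at 16 h. It passed with DESeq2 (-0.43, adjusted p = 0.0168), without a low-count filter (-0.45, adjusted p = 7.56e-06) and without control replicate 3 at 16 h, CM replicate 1 at 16 h or CM replicate 4 at 28 h (adjusted p from 0.0267). The other 3 were Nfkbiz (-0.24 ± 0.08, adjusted p = 0.374), Nfkb2 (-0.24 ± 0.08, adjusted p = 0.465) and Vcam1 (-0.17 ± 0.07, adjusted p = 0.619). The call of Vcam1 at 28 h therefore does not show an effect that differed from that at 16 h.

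Few genes of the pathway list were called with CM, and few of all genes tested were. At 16 h none of 60 rose and 2 fell, the interleukin receptor gene Il1r1 (-0.29 ± 0.04, adjusted p = 0.000161) and Sdc4 (-0.19 ± 0.04, adjusted p = 0.00254). Of all genes, 2.03% were called at 16 h in either direction. At 28 h none rose and the interleukin gene Il1a fell by 1.33 ± 0.25 (adjusted p = 0.00221), at 1.40 CPM in CM cells against 3.54 CPM in control cells. Of all genes, 0.706% were called higher and 1.22% lower at 28 h. Il1r1 was also the gene of the list whose effect differed between the times (0.35 ± 0.06, adjusted p = 0.00252), as it did for 0.277% of all genes. Of the glucocorticoid receptor targets, Per1 (0.41 ± 0.09), Fkbp5 (0.34 ± 0.05) and Tsc22d3 (0.31 ± 0.07) rose with CM at 16 h, and at 28 h Fkbp5 rose (0.26 ± 0.05) and Sgk1 fell (-0.18 ± 0.04). Values of Dusp1 at both times, of Sgk1 at 16 h, and of Per1 and Tsc22d3 at 28 h are not given here.

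With time, 7 of the 8 genes tested changed in HL-1 cells. In both media the same 6 genes rose at 28 h and Csf1 fell. Of all genes tested, 32.6% rose and 32.9% fell in CM, and 31.5% rose and 31.3% fell in control medium. Without control replicate 3 at 16 h, 6 again rose and 1 fell in control medium. Nfkbiz changed most, rising by 1.66 ± 0.05 in CM cells (adjusted p = 7.84e-19) and by 1.90 ± 0.05 in control cells (adjusted p = 9.98e-20). Its level was 97.3 ± 3.75 CPM at 28 h and 30.7 ± 1.04 CPM at 16 h in CM cells, and 113 ± 4.60 CPM at 28 h and 30.1 ± 2.72 CPM at 16 h in control cells. Tnfaip3 rose by 1.30 ± 0.06 in CM cells and 1.45 ± 0.07 in control cells, and Nfkbia by 0.89 ± 0.07 in CM cells and 1.33 ± 0.07 in control cells.

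The subunit genes rose as well. Relb rose by 0.86 ± 0.11 in CM cells and 1.04 ± 0.11 in control cells, and Nfkb1 by 0.61 ± 0.03 in CM cells and 0.67 ± 0.03 in control cells. Nfkb2 rose by 0.24 ± 0.06 in CM cells (adjusted p = 0.000835) and 0.48 ± 0.06 in control cells (adjusted p = 1.19e-07), and the overlapping Psd had 10.2 to 21.0 CPM. Csf1 fell by 0.24 ± 0.04 in CM cells (adjusted p = 1.51e-05) and by 0.21 ± 0.04 in control cells (adjusted p = 0.000105), where 32.9% of all genes fell in CM and 31.3% in control medium. Vcam1 passed in neither medium, at -0.10 ± 0.05 in CM cells (adjusted p = 0.104) and 0.08 ± 0.05 in control cells (adjusted p = 0.219). In the pathway list 32 of 60 genes rose and 8 fell in CM, and 31 rose and 8 fell in control medium, led in both by Sdc4 (1.32 ± 0.04 in CM and 1.24 ± 0.04 in control medium) and Ier3 (2.43 ± 0.08 in CM and 2.55 ± 0.08 in control medium).

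Marker levels also differed between the times in HL-1. The 8 cardiomyocyte markers summed to 1079 to 1169 CPM at 28 h and 886 to 937 CPM at 16 h in CM libraries, and to 1138 to 1192 CPM at 28 h and 886 to 936 CPM at 16 h in control libraries, with Myh6 and Nppa at 0 in control libraries. Des and Gja1 held most of these sums, averaging 524 and 466 CPM over the 16 HL-1 libraries. Tnnt2 averaged 34.5 CPM and Nkx2-5 2.92 CPM, and the rest were at or near 0. Actc1 was at 0 in both media at 28 h. The 5 fibroblast markers summed to 1280 to 1539 CPM at 28 h and 836 to 957 CPM at 16 h in CM libraries, and to 1207 to 1285 CPM at 28 h and 768 to 928 CPM at 16 h in control libraries. Col1a2, at 844 CPM on average, held most of these sums, while Lum averaged 0.0145 CPM. The 6 endothelial markers stayed at or under 2.36 CPM in sum, with Emcn at 0 in all 4 groups, and the 7 leukocyte markers at or under 2.98 CPM, with Adgre1 at 0 in all 4. The part of the cardiomyocyte and fibroblast markers in the changes with time was not tested.

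**Figure D4:**
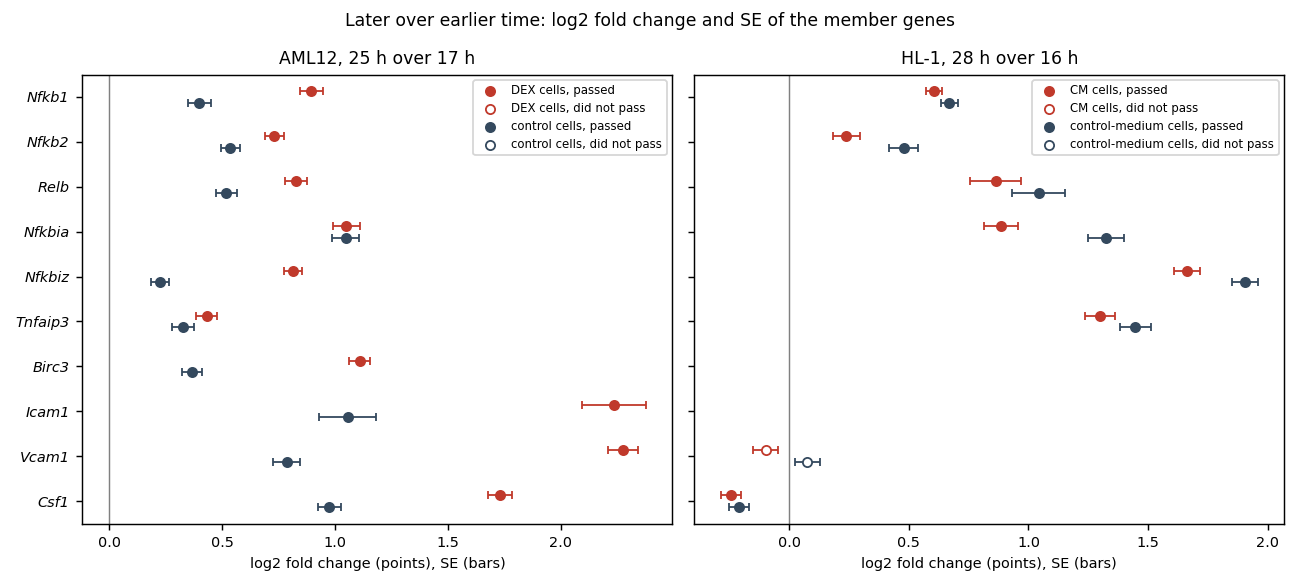
Log2 fold change of the later over the earlier time (x axis) for each gene (y axis), with SE bars, in AML12 (left, 25 h over 17 h) and HL-1 (right, 28 h over 16 h), for treated (red) and control (dark) cells. Filled points passed the test and open points did not, and Birc3 and Icam1 were not tested in HL-1. In AML12 Vcam1 is at 2.28 in DEX cells and 0.79 in control cells, while Nfkbia is at 1.05 in both.

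The genes nearest in pattern were also sought over the HL-1 libraries for the 2 genes that changed with CM. Vcam1 was closest in HL-1 to Gja1 (0.0694), Raet1d (0.0803) and Eif1a (0.0865), among 12648 genes compared, with a spread of 0.146 of its own. Nfkbiz was closest to Mxi1 (0.102), Fam162a (0.114) and the clock-related repressor gene Bhlhe40 (0.115), with a spread of 0.882. A likeness over 16 libraries of 4 groups rests mostly on the 4 group means.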

How the data were processed

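The deposited values are whole-number read counts per gene, in a table per line, whose column totals differ as raw counts do. FastQC 0.11.8, STAR, mm10 and GRCm38 are named for the authors' steps, per the submitters' processing notes. No counter, strand setting or annotation release is given in the sources used here. TRIzol extraction and NEBNext Ultra II library preparation are stated, per the labels' protocols. In the HL-1 table the CM columns carry the name DEX, and were matched through the labels' descriptions.

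Each line had its own fit in edgeR 4.0.16 (R 4.3.3), with groups from the labels and 1 mean per group over 16 libraries: filterByExpr by group, TMM scaling and the quasi-likelihood test, with Benjamini-Hochberg adjustment over all genes tested, at 0.05. SEs are the size of the log2 fold change over the root of F. There were 10 contrasts: treatment at each time, the difference of its effects between times, and time within each arm. The test was tried on simulated data. Alternatives were RLE size factors, scaling by total counts, limma-voom (limma 3.58.1), no filter on low counts, DESeq2 1.42.0, a block for the replicate number, a fit of the compared libraries only, and leaving out each library. Exon lengths and positions come from GENCODE M21 on GRCm38.

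The 10 genes, the pathway list and the marker lists were chosen with earlier results of these data known. Named were all 10 genes; of the pathway list, up to 4 called genes with the smallest p per comparison, and beyond that rule Rela and Rel, named after their values were seen; the glucocorticoid receptor targets; and the 3 nearest genes in pattern, with a mean of at least 1 CPM and no predicted name, of each gene called with treatment.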

Additional observations from a re-analysis of the deposited data

Results flagged for a closer look

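Of 72 groups of 4 libraries examined, a group for each gene tested in a line, 5 had a library far from the other 3 by Dixon's criterion, where chance gives about 1 in 20. Relb had 77.2 CPM in AML12 control replicate 4 at 17 h, above 71.5 to 72.4 CPM in the others. Birc3 had 69.5 CPM in DEX replicate 4 at 17 h, above 62.2 to 63.2 CPM. Vcam1 had 239 CPM in control replicate 1 at 25 h, below 264 to 268 CPM, and without that library its higher level with DEX no longer passed (0.15, adjusted p = 0.134). Tnfaip3 had 335 CPM in DEX replicate 4 at 25 h, below 393 to 402 CPM, and 22.2 CPM in HL-1 CM replicate 2 at 16 h, below 28.1 to 28.3 CPM.

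The effect of DEX differed between 25 h and 17 h, by the test of the difference, for 8 genes. The differences on the log2 scale were 1.49 for Vcam1, 1.18 for Icam1, 0.76 for Csf1, 0.74 for Birc3, 0.59 for Nfkbiz, 0.50 for Nfkb1, 0.31 for Relb and 0.19 for Nfkb2.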

How the results depend on the processing

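Over all alternatives, 1424 of 1476 values for single genes of the set kept their direction and their side of the threshold; 19 came to pass the test, 16 no longer passed and 17 changed sign. The changes of sign were in values near 0 that did not pass. The difference of the DEX effect for Nfkbia was -8.0e-05 with DESeq2 and -0.0017 with limma-voom, and -0.064 to 0.049 on leaving out 1 library. On leaving out 1 library the DEX effect at 25 h was -0.050 to 0.013 for Birc3, the CM effect at 16 h was -0.012 to 0.071 for Nfkbiz, and that at 28 h was -0.0013 to 0.039 for Csf1, whose difference between times was -0.055 to 0.023. Of the 10 genes, 1 to 2 were called for DEX at 25 h on leaving out 1 library. In HL-1, 0 to 1 were called at 16 h, 1 to 2 at 28 h and 0 to 1 for the difference between times. The block, DESeq2 and no low-count filter each gave 1 call at 16 h and 1 for the difference, in each case Nfkbia. Of the genes given an adjusted p by DESeq2, 2.85% were called at 16 h and 0.553% for the difference. The shares of all genes called with the block or with no low-count filter are not given here, so those calls are not set against them.

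The pathway list gave 4 to 7 calls for DEX at 25 h on leaving out 1 library; for CM at 28 h it gave 1 to 2 on leaving out 1 library, 3 with no low-count filter and 2 with limma-voom, the block or only the compared libraries. All genes called numbered 170 to 334 for CM at 28 h on leaving out 1 library, beside 278. For the difference of the CM effect between times they numbered 97 with no low-count filter and 63 with DESeq2, beside 40. The cause of these shifts was not tested.

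Replicate numbers did not pair the samples, as same-numbered libraries had deviations correlated at -0.24 to 0.24 and in none of 8 comparisons was every pair over 0.1. With the block the Nfkbia change with CM at 16 h was 0.27 (adjusted p = 0.0188) and its difference between times -0.44 (adjusted p = 0.0103). Total-count scaling moved the median of all genes by at most 0.047 and RLE by 0.011. In HL-1, at 15.7 to 19.3 M counts per library, Birc3 had 1 count in all 16 libraries and Icam1 0 to 7 per library, so a change of either was not detectable at this depth.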
